A study of Mus musculus with 12 samples.

Results

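DNA replication and S phase genes were followed as a group of 38 named genes. They were chosen by function and not by their measured values, though earlier results of these data were known. Of these, 37 had a probe set that the array annotation assigns to that gene alone, and all 37 passed the filter on dim probe sets, out of 12609 genes tested and 18193 genes with such a probe set. Chaf1a was not analysed here. Each gene was read from 1 probe set, the one with the highest mean over the 12 arrays. Levels are log2 values after quantile normalization between arrays, so a difference of 1 is a doubling.

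RNA came from C57BL/10.RIII mice, and 4 cell populations separated by surface markers were measured on 3 Affymetrix Mouse430_2 arrays each. The nFoxA1Treg samples were FoxA1 regulatory T cells gated as CD4hi and PD-L1hi; their titles call them neuron induced and their cell type field calls them natural. The Treg samples carried the gate CD4+ and TGFbeta+. The iFoxA1Treg samples were labelled as FoxA1 regulatory T cells induced with IFN-beta, with the gate CD4hi and PD-L1hi. The EncT samples, CD4+ encephalitogenic T cells, are the population able to cause experimental autoimmune encephalomyelitis, a paralytic disease of mice used to model multiple sclerosis, and are the control here. All 4 groups share the strain, and nFoxA1Treg and iFoxA1Treg also share the gate. The sources used here do not say whether the cells had been cultured or stimulated, or whether replicates came from separate animals, so each p-value reflects variation among these arrays alone, and that variation may be technical.

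Before a cell divides, origin recognition proteins, Cdc6 and Cdt1 load the Mcm2 to Mcm7 ring onto DNA, which licenses each origin. Cdc45 and the GINS proteins turn the ring into a moving helicase, primase and the polymerases copy the strands, and the clamp Pcna holds the polymerases on their template. T cells are small and quiescent until their antigen receptor is engaged, and then divide fast. The genes of this machinery are largely kept off in resting cells by pocket proteins bound to E2F factors and come on together as cells approach S phase.

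The arrays of 3 groups carried T cell transcripts at like levels, while those labelled iFoxA1Treg had little Cd4, against their CD4hi label. Mean Cd4 was 4.24 in the arrays labelled iFoxA1Treg, against 10.44 in nFoxA1Treg, 10.39 in Treg and 10.57 in EncT arrays. Summed on the linear scale, 5 B cell markers reached 16576 to 18331 in the arrays labelled iFoxA1Treg and 70 to 154 elsewhere, and 7 macrophage and monocyte markers reached 11207 to 11605 there and 102 to 232 elsewhere. The 6 neutrophil markers reached 32004 to 32038 there and 9 to 28 elsewhere. Xist, expressed from the inactive X chromosome of females, averaged 2.11 in those arrays and 11.07 or more in the other groups, so sex and cell population cannot be told apart in any comparison that includes them. Cd274, which encodes PD-L1, averaged 10.01 in the arrays labelled iFoxA1Treg, 7.34 in nFoxA1Treg, 7.31 in Treg and 7.63 in EncT arrays, so that transcript was not above EncT in nFoxA1Treg cells despite their PD-L1hi gate. Foxa1 itself did not pass the filter, and neither did Foxp3. Foxp3 averaged 2.55 in nFoxA1Treg, 2.77 in Treg, 5.22 in the arrays labelled iFoxA1Treg and 1.66 in EncT arrays. Deposited array medians lay between 4.64 and 4.84.

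Replication genes were higher in nFoxA1Treg than in EncT cells at each step of the process. Of the 37 genes measured, 35 rose and 0 fell, with a median log2 difference of 0.40, or 1.32-fold, against a median of -0.0044 over all genes tested. A gene is called here when its Benjamini-Hochberg adjusted p over all genes, from limma fitted to the 12 arrays, is under 0.05. By that rule 8.46% of all genes were higher and 11.2% were lower in nFoxA1Treg. The 2 genes not called were Cdc45, at 0.25 with an adjusted p of 0.0508, and Pole, at 0.26 with an adjusted p of 0.103. The differences were modest in size and narrow in range, between 0.18 for Dnmt1 and 0.61 for Pold1. All 3 nFoxA1Treg arrays stood above all 3 EncT arrays for 37 of 37 genes, which held for 15.8% of all genes.

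Treg cells gave the same direction. Of the 37 genes, 31 rose and 0 fell against EncT, with a median difference of 0.35, or 1.27-fold, where 6.23% of all genes were called higher and 10.3% lower. The 6 genes not called were Mcm10 (0.48, adjusted p = 0.056), Cdc45 (0.21, adjusted p = 0.0931), Gins2 (0.31, adjusted p = 0.0776), Pole (0.26, adjusted p = 0.111), Fen1 (0.26, adjusted p = 0.061) and Rrm2 (0.28, adjusted p = 0.06), all from the same limma fit. All 3 Treg arrays stood above all 3 EncT arrays for 32 genes, against 14.1% of all genes. The exceptions were Cdc45, Gins2, Pole, Rrm2 and Dnmt1. This count rests on few arrays: 20 genes were called without EncT replicate 1, 17 without Treg replicate 2, 17 without Treg replicate 3 and 18 when the fit held only the arrays of these 2 groups. Both comparisons use the same 3 EncT arrays, so they are not independent of each other. Without the arrays labelled iFoxA1Treg, 34 genes were called higher in nFoxA1Treg and 30 in Treg. RNA was taken from many cells at once, so a larger share of cells in S phase and more transcript per cell cannot be told apart.

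**Figure D1:**
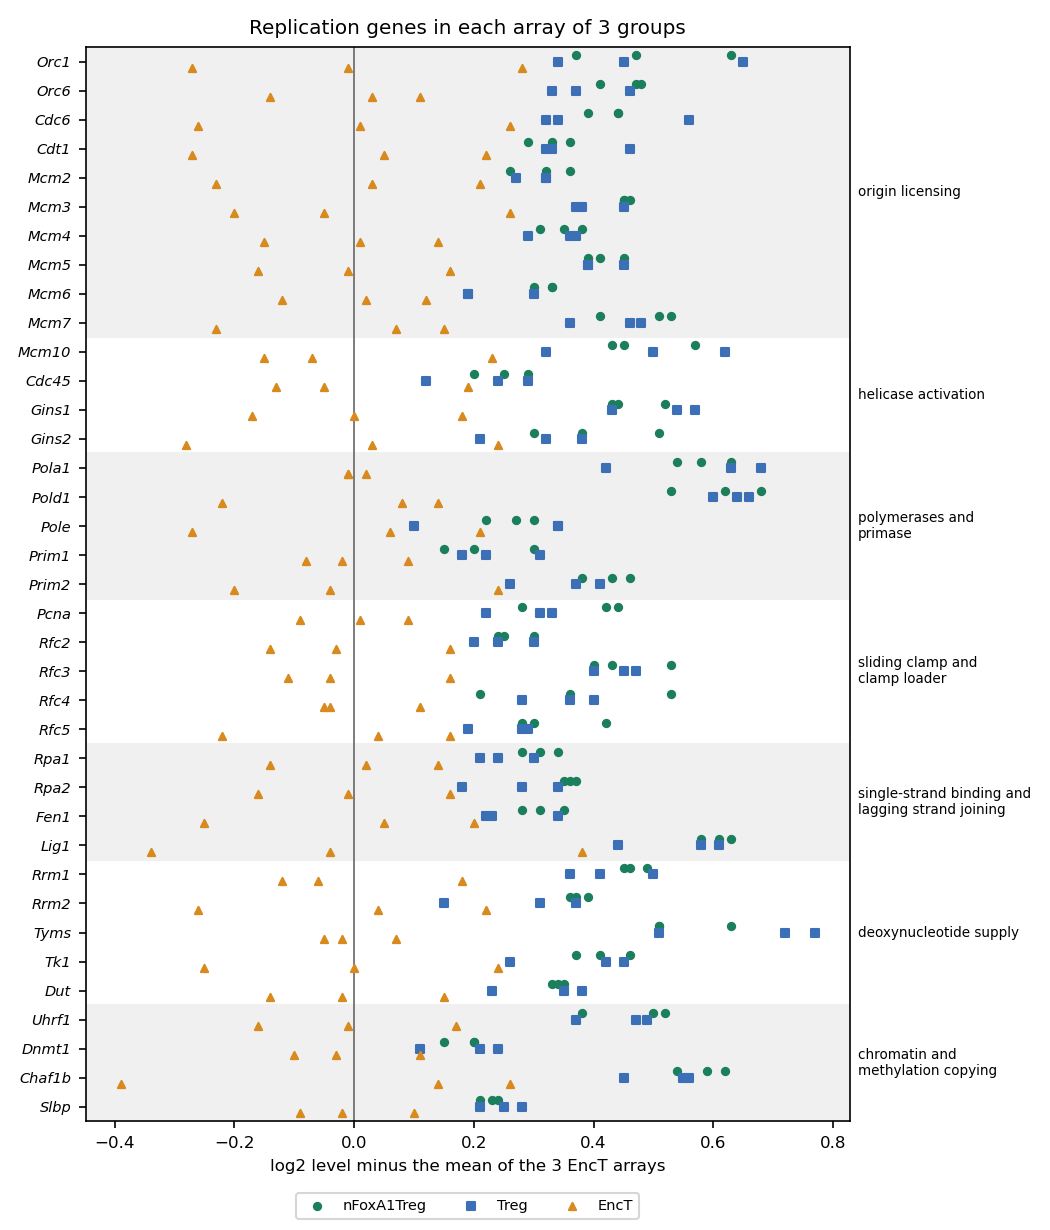
Log2 level of each of the 37 replication genes in every nFoxA1Treg, Treg and EncT array, minus the mean of the 3 EncT arrays, with genes grouped by role down the page and 1 point per array. The nFoxA1Treg points (circles) lie right of the EncT points (triangles) for 37 of 37 genes, and the Treg points (squares) do so for 32.

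The EncT arrays themselves spread out along these genes. EncT replicate 1 was the lowest of the 3 for 35 of 37 genes and EncT replicate 2 was the highest for 37 of 37, whereas over all genes replicate 1 was lowest for 46.8% and replicate 2 highest for 46.0%. The median over the 37 genes, relative to the EncT mean, was 0.39, 0.38 and 0.41 in nFoxA1Treg arrays, 0.29, 0.37 and 0.37 in Treg arrays, and -0.16, 0.17 and 0.00 in EncT arrays. In these medians the gap between the lowest nFoxA1Treg or Treg array and the highest EncT array was smaller than the spread among the EncT arrays. Leaving out EncT replicate 1 reduced the nFoxA1Treg count to 26 genes with a median of 0.30, and leaving out EncT replicate 2 raised it to 37 genes with a median of 0.50. The median standard deviation of these genes was 0.0397 in nFoxA1Treg, 0.0703 in Treg and 0.168 in EncT arrays, beside 0.0969, 0.0869 and 0.136 over all genes in the same 3 groups. Whether the EncT spread is technical was not tested.

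Among the 10 origin licensing genes, 10 rose in nFoxA1Treg (median 0.42) and 10 rose in Treg (median 0.39). For this and each later role, the share of all genes called higher was 8.46% in nFoxA1Treg and 6.23% in Treg. Orc6, a subunit of the origin recognition complex, was at 9.14, 9.08 and 9.15 in nFoxA1Treg arrays, 9.0, 9.04 and 9.13 in Treg arrays, 7.79, 7.86 and 7.80 in the arrays labelled iFoxA1Treg, and 8.53, 8.78 and 8.70 in EncT arrays. Its lowest nFoxA1Treg and Treg values lay above its highest EncT value, and it rose by 0.45 in nFoxA1Treg (SE 0.065, adjusted p = 0.000724, limma) and by 0.39 in Treg (SE 0.065, adjusted p = 0.00239, limma). Mcm5, a subunit of the licensing ring, was at 11.68, 11.72 and 11.66 in nFoxA1Treg arrays, 11.66, 11.72 and 11.66 in Treg arrays, 9.73, 9.73 and 9.68 in the arrays labelled iFoxA1Treg, and 11.11, 11.43 and 11.26 in EncT arrays. The nFoxA1Treg and Treg arrays occupied the same narrow range of Mcm5, above all EncT arrays. It rose by 0.42 in nFoxA1Treg (SE 0.064, adjusted p = 0.00108, limma) and by 0.41 in Treg (SE 0.064, adjusted p = 0.00156, limma).

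The 6 subunits Mcm2 to Mcm7 form 1 ring, and their transcripts rose by 0.31 (Mcm2), 0.45 (Mcm3), 0.35 (Mcm4), 0.42 (Mcm5), 0.31 (Mcm6) and 0.48 (Mcm7) in nFoxA1Treg. In Treg the same subunits rose by 0.30 (Mcm2), 0.40 (Mcm3), 0.34 (Mcm4), 0.41 (Mcm5), 0.22 (Mcm6) and 0.44 (Mcm7). The loading factors were close to the ring genes. Orc1, the largest origin recognition subunit, rose by 0.49 in nFoxA1Treg and 0.48 in Treg. Both Orc1 calls lay close to the threshold (SE 0.15, adjusted p = 0.0415 in nFoxA1Treg and 0.0489 in Treg, limma). The loader Cdc6 rose by 0.42 in nFoxA1Treg and 0.40 in Treg, and its partner Cdt1 by 0.33 in nFoxA1Treg and 0.37 in Treg.

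Of the 4 helicase activation genes, 3 rose in nFoxA1Treg and 1 in Treg. Gins1, a GINS subunit, was at 8.66, 8.58 and 8.57 in nFoxA1Treg arrays, 8.57, 8.71 and 8.68 in Treg arrays, 7.26, 7.32 and 7.24 in the arrays labelled iFoxA1Treg, and 7.97, 8.32 and 8.14 in EncT arrays. All nFoxA1Treg and Treg arrays were above all EncT arrays, with a rise of 0.46 in nFoxA1Treg (SE 0.079, adjusted p = 0.00173, limma) and 0.51 in Treg (SE 0.079, adjusted p = 0.00144, limma). Gins2 rose by 0.40 in nFoxA1Treg, as did Mcm10, which binds the helicase as it is activated, by 0.48. For both genes the adjusted p in Treg missed the threshold, and in nFoxA1Treg that of Mcm10 lay just under it (0.0489, limma).

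Polymerase transcripts included some of the widest gaps. Of the 5 polymerase and primase genes, 4 rose in each group, the exception in both being Pole, the catalytic subunit of the leading strand polymerase. Pola1, the catalytic subunit of polymerase alpha, which starts each new strand, was at 8.72, 8.67 and 8.63 in nFoxA1Treg arrays, 8.51, 8.72 and 8.77 in Treg arrays, 7.45, 7.55 and 7.31 in the arrays labelled iFoxA1Treg, and 8.08, 8.11 and 8.08 in EncT arrays. The EncT arrays differed little for this gene, with a standard deviation of 0.0167, and it rose by 0.59 in nFoxA1Treg (SE 0.077, adjusted p = 0.000391, limma) and by 0.58 in Treg (SE 0.077, adjusted p = 0.00062, limma). Pold1, the catalytic subunit of the lagging strand polymerase delta, rose by 0.61 in nFoxA1Treg and 0.63 in Treg. The primase subunits Prim1 and Prim2, which lay down RNA primers, rose by 0.22 and 0.42 in nFoxA1Treg and by 0.24 and 0.35 in Treg.

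For the clamp and its loader, 5 of 5 genes were called higher in both groups. Under the 23 alternative settings given below, the Treg call held in 14 for Rfc2, 18 for Rfc4 and 7 for Rfc5. In nFoxA1Treg it held in 18 for Rfc2 and 22 for Rfc5. The other calls held in each setting. Pcna, the sliding clamp, was at 13.01, 12.99 and 12.85 in nFoxA1Treg arrays, 12.79, 12.90 and 12.88 in Treg arrays, 11.33, 11.41 and 11.41 in the arrays labelled iFoxA1Treg, and 12.48, 12.66 and 12.58 in EncT arrays. It rose by 0.38 in nFoxA1Treg (SE 0.056, adjusted p = 0.000838, limma) and by 0.28 in Treg (SE 0.056, adjusted p = 0.00548, limma), without overlap between either group and EncT. The loader subunits Rfc2 to Rfc5 rose by 0.27 to 0.45 in nFoxA1Treg and by 0.25 to 0.44 in Treg, with Rfc3 the highest in both.

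Of the 4 genes of single-strand binding and lagging strand joining, 4 rose in nFoxA1Treg and 3 in Treg. Rpa1, the large subunit of the complex that coats single-stranded DNA, was at 11.92, 11.89 and 11.86 in nFoxA1Treg arrays, 11.79, 11.88 and 11.82 in Treg arrays, 10.29, 10.28 and 10.32 in the arrays labelled iFoxA1Treg, and 11.44, 11.72 and 11.60 in EncT arrays. Its nFoxA1Treg and Treg values lay above the EncT values, with rises of 0.31 in nFoxA1Treg (SE 0.058, adjusted p = 0.00339, limma) and 0.25 in Treg (SE 0.058, adjusted p = 0.0141, limma). Lig1, the ligase that seals lagging strand fragments, was at 10.95, 10.92 and 10.97 in nFoxA1Treg arrays, 10.78, 10.92 and 10.95 in Treg arrays, 8.10, 8.27 and 8.09 in the arrays labelled iFoxA1Treg, and 10.00, 10.72 and 10.30 in EncT arrays. EncT replicate 2 came close to the lowest Treg array, and Lig1 had the widest EncT spread of the 37 genes, 0.36. It still rose by 0.61 in nFoxA1Treg (SE 0.13, adjusted p = 0.00639, limma) and by 0.54 in Treg (SE 0.13, adjusted p = 0.0139, limma). Rpa2 rose by 0.36 in nFoxA1Treg and 0.27 in Treg, and the flap nuclease Fen1 rose by 0.31 in nFoxA1Treg.

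All 5 genes of deoxynucleotide supply rose in nFoxA1Treg and 4 rose in Treg. Rrm1, the large subunit of ribonucleotide reductase, was at 10.92, 10.93 and 10.96 in nFoxA1Treg arrays, 10.83, 10.88 and 10.97 in Treg arrays, 9.07, 9.08 and 9.10 in the arrays labelled iFoxA1Treg, and 10.35, 10.65 and 10.41 in EncT arrays. Its rise was 0.47 in nFoxA1Treg (SE 0.066, adjusted p = 0.000632, limma) and 0.42 in Treg (SE 0.066, adjusted p = 0.0016, limma), with no overlap. Rrm2, the small subunit that is made in S phase, was at 11.88, 11.87 and 11.90 in nFoxA1Treg arrays, 11.66, 11.88 and 11.82 in Treg arrays, 9.81, 9.82 and 9.77 in the arrays labelled iFoxA1Treg, and 11.25, 11.73 and 11.55 in EncT arrays. Here the lowest Treg array lay below the highest EncT array, and only the nFoxA1Treg rise of 0.37 was called (SE 0.093, adjusted p = 0.0156, limma).

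Tyms, which makes the thymidine nucleotide, was at 7.30, 7.42 and 7.30 in nFoxA1Treg arrays, 7.30, 7.56 and 7.51 in Treg arrays, 3.19, 3.84 and 3.69 in the arrays labelled iFoxA1Treg, and 6.77, 6.86 and 6.74 in EncT arrays. Its difference in Treg, 0.67, was the highest of the 37 genes in that comparison (SE 0.14, adjusted p = 0.00805, limma), and in nFoxA1Treg it rose by 0.55 (SE 0.14, adjusted p = 0.0171, limma). The salvage kinase Tk1 rose by 0.42 in nFoxA1Treg and 0.38 in Treg, and Dut, which removes dUTP from the pool, by 0.34 in nFoxA1Treg and 0.32 in Treg.

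Copying chromatin and methylation marks involves Uhrf1, which finds half-methylated DNA, the methyltransferase Dnmt1, the histone chaperone subunit Chaf1b and the histone mRNA binding protein Slbp. All 4 rose in both groups. Uhrf1 was at 10.27, 10.25 and 10.13 in nFoxA1Treg arrays, 10.12, 10.24 and 10.22 in Treg arrays, 8.16, 8.17 and 8.21 in the arrays labelled iFoxA1Treg, and 9.59, 9.92 and 9.74 in EncT arrays. It rose by 0.47 in nFoxA1Treg (SE 0.073, adjusted p = 0.00116, limma) and by 0.45 in Treg (SE 0.073, adjusted p = 0.00205, limma), without overlap. Slbp was at 11.02, 10.99 and 11.01 in nFoxA1Treg arrays, 10.99, 11.06 and 11.03 in Treg arrays, 10.04, 10.09 and 10.07 in the arrays labelled iFoxA1Treg, and 10.76, 10.88 and 10.69 in EncT arrays. The rises of Slbp were small but clear of the spread, 0.23 in nFoxA1Treg (SE 0.047, adjusted p = 0.00521, limma) and 0.25 in Treg (SE 0.047, adjusted p = 0.00437, limma).

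Dnmt1 showed the smallest rise of the group. It was at 10.42, 10.42 and 10.37 in nFoxA1Treg arrays, 10.33, 10.46 and 10.43 in Treg arrays, 9.39, 9.41 and 9.52 in the arrays labelled iFoxA1Treg, and 10.12, 10.33 and 10.19 in EncT arrays. The lowest Treg array and the highest EncT array were level, and the rises of 0.18 in nFoxA1Treg (adjusted p = 0.0451, limma) and 0.19 in Treg (adjusted p = 0.0436, limma) lay close to the threshold. Chaf1b was among the wider differences, at 0.58 in nFoxA1Treg and 0.52 in Treg.

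**Figure D2:**
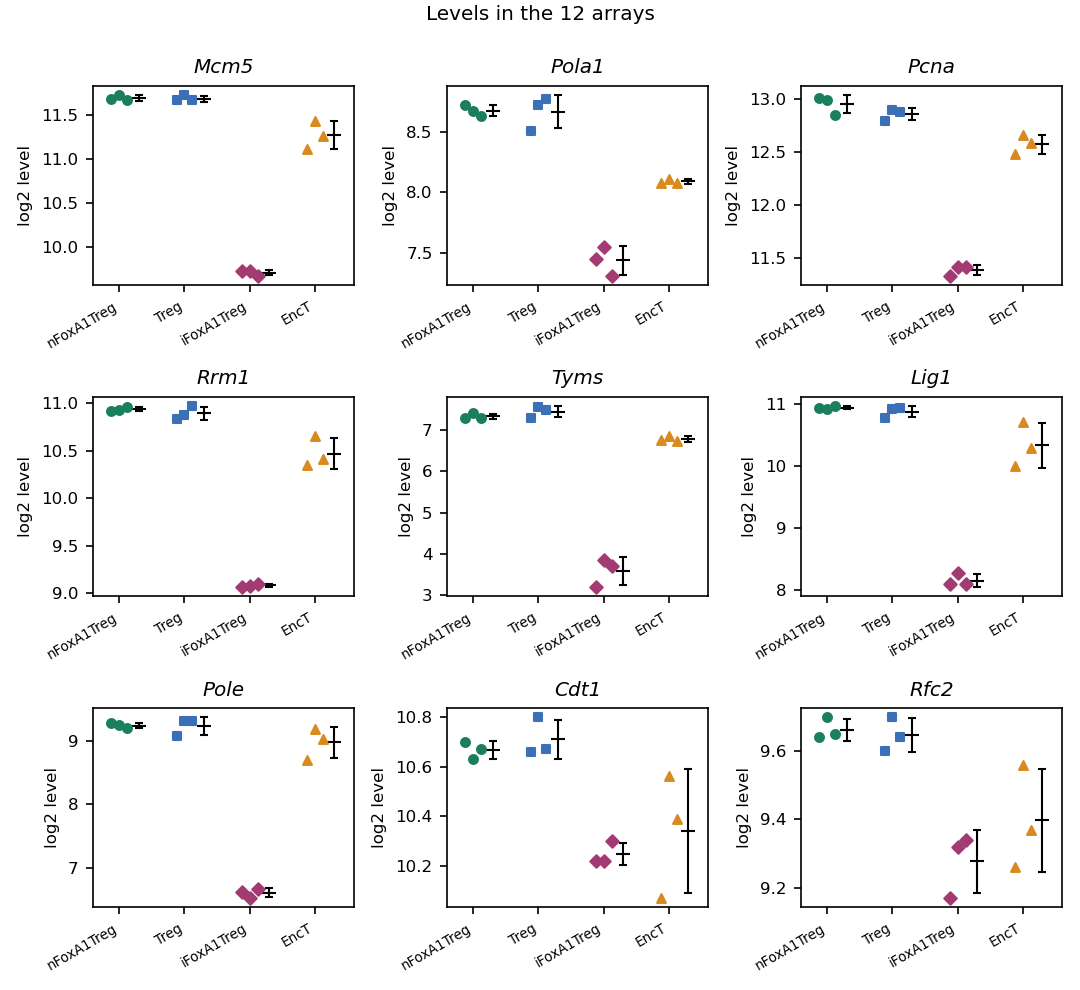
Normalized log2 levels of 9 replication genes in the 12 arrays, 1 point per array, with the group mean and standard deviation (n = 3) beside the points; each panel has its own vertical scale, which does not start at 0. For Mcm5, Pola1, Pcna, Rrm1, Tyms and Lig1 the nFoxA1Treg and Treg arrays lie above the EncT arrays and the arrays labelled iFoxA1Treg far below, while Cdt1 and Rfc2 overlap between the arrays labelled iFoxA1Treg and EncT.

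Of all 37 genes, 21 of the 35 called in nFoxA1Treg were called under each of the 23 alternative settings tried, and 14 of the 31 called in Treg. The genes called throughout in Treg were Gins1, Mcm3, Mcm4, Mcm5, Mcm7, Orc6, Pcna, Pola1, Pold1, Rfc3, Rrm1, Slbp, Tyms and Uhrf1. Most genes were also measured by further probe sets. There were 41 others past the filter, in 29 genes, and in nFoxA1Treg against EncT 41 of them had a positive difference and 27 were called higher, where 8.38% of all 27022 probe sets were. In Treg against EncT, 40 were positive, the exception being 1 of Dut at -0.022, and 27 were called higher, against 6.35% of all probe sets. Probe sets of 1 gene share their RNA and are not further replicates.

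**Figure D3:**
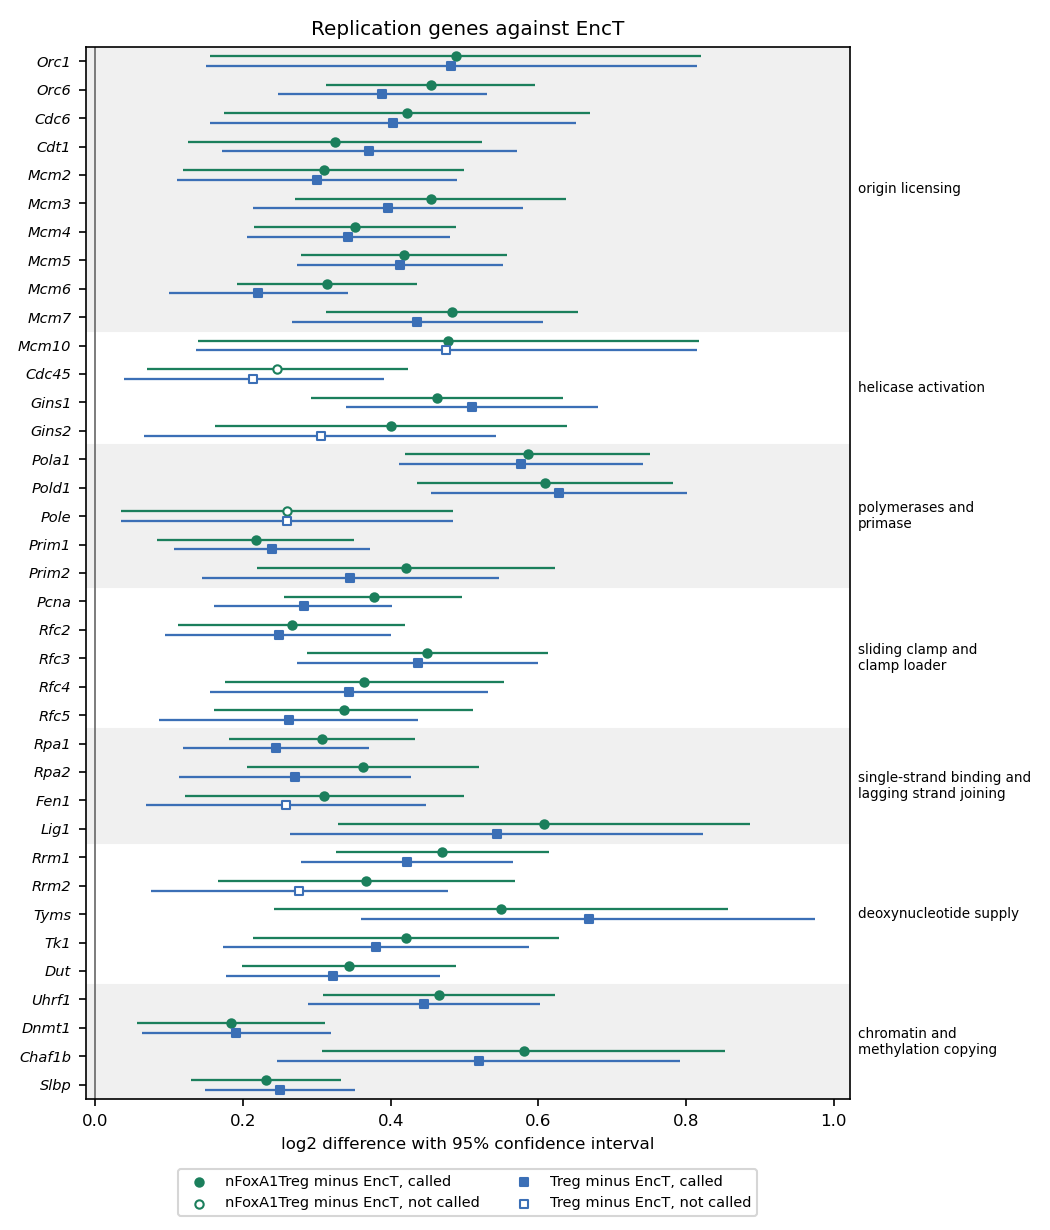
Log2 difference of each gene in nFoxA1Treg (circles) and Treg (squares) minus EncT, with the 95% confidence interval from limma; filled symbols mark genes with an adjusted p under 0.05. All differences lie right of 0, between 0.18 and 0.67, and 2 circles and 6 squares are open.

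Between nFoxA1Treg and Treg, no replication gene was called. The differences ran from -0.12 for Tyms to 0.10 for Gins2, with a median of 0.021, and their 95% confidence intervals all lay within 0.5 of 0, the lowest bound being -0.43 (Tyms) and the highest 0.34 (Lig1). Limma called 0 of 37 genes at an adjusted p under 0.05 and 0 at an unadjusted p under 0.05. Over all genes, 468 had an unadjusted p under 0.05 and 1 was called, 0.00793%; this was Ttr. Each interval covers 1 gene and reflects variation among these arrays alone, and the intervals do not show that the levels are equal.

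Most replication genes were lower in the arrays labelled iFoxA1Treg than in the other groups. Of the 37, 0 rose and 35 fell against EncT, with a median of -1.29, or 2.44-fold lower, where 38.3% of all genes were lower and 33.9% higher. All 3 of these arrays lay below all 3 EncT arrays for 35 genes, as they did for 38.4% of all genes. Tyms had the most negative difference, -3.21 (SE 0.14, adjusted p = 2.2e-10, limma), but its 3 values in the arrays labelled iFoxA1Treg all lay below 4.05, the level of the filter, so the size of this difference is uncertain. Its other probe sets past the filter gave -0.93 and 0.48. Pole was at 9.27, 9.24 and 9.19 in nFoxA1Treg arrays, 9.07, 9.31 and 9.31 in Treg arrays, 6.62, 6.53 and 6.67 in the arrays labelled iFoxA1Treg, and 8.70, 9.18 and 9.03 in EncT arrays. It fell by 2.37 in those arrays (5.15-fold lower, SE 0.10, adjusted p = 2.12e-10, limma), although it was not called between nFoxA1Treg or Treg and EncT. Lig1 fell by 2.19 (4.56-fold lower, SE 0.13, adjusted p = 3.94e-09, limma).

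By role, and with no test of a difference between roles, whose ranges overlapped, the median was -1.71 for deoxynucleotide supply, -1.48 for helicase activation, -1.30 for single-strand binding and lagging strand joining, -1.17 for chromatin and methylation copying, -1.14 for origin licensing, -1.13 for polymerases and primase and -0.75 for the clamp and its loader. Tk1, at -2.18, Cdc6, at -2.06, and Mcm10, at -2.04, were also among the wide differences, while Pola1 fell by 0.65. The 2 genes not called were Cdt1, with a difference of -0.10 (adjusted p = 0.367, limma), and Rfc2, with -0.12 (adjusted p = 0.133, limma). Cdt1 was at 10.70, 10.63 and 10.67 in nFoxA1Treg arrays, 10.66, 10.80 and 10.67 in Treg arrays, 10.22, 10.22 and 10.30 in the arrays labelled iFoxA1Treg, and 10.07, 10.56 and 10.39 in EncT arrays. Rfc2 was at 9.64, 9.70 and 9.65 in nFoxA1Treg arrays, 9.60, 9.70 and 9.64 in Treg arrays, 9.17, 9.32 and 9.34 in the arrays labelled iFoxA1Treg, and 9.26, 9.56 and 9.37 in EncT arrays. For both genes the arrays labelled iFoxA1Treg overlapped EncT, unlike the other 35 genes.

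Set against nFoxA1Treg, 37 of 37 genes fell in the arrays labelled iFoxA1Treg, with a median of -1.60, where 39.2% of all genes were lower. Set against Treg, 37 of 37 fell with a median of -1.58, where 38.4% of all genes were lower. These 3 comparisons share the same arrays labelled iFoxA1Treg. T cell markers fell with the replication genes, 5 of 5 tested, with summed linear levels of 3017 to 3236 in the arrays labelled iFoxA1Treg, against 12185 to 12738 in nFoxA1Treg, 12686 to 12999 in Treg and 12931 to 13768 in EncT arrays. Markers of B cells, macrophages, monocytes and neutrophils were far higher, as given above, and their part and that of sex in the fall of the replication genes was not tested. The other 41 probe sets of these genes gave 34 called lower against EncT, where 39.7% of all probe sets were, 7 not called and 3 with a positive difference, in Mcm3 (0.22), Rfc2 (0.14) and Tyms (0.48), of which none was called.

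**Figure D4:**
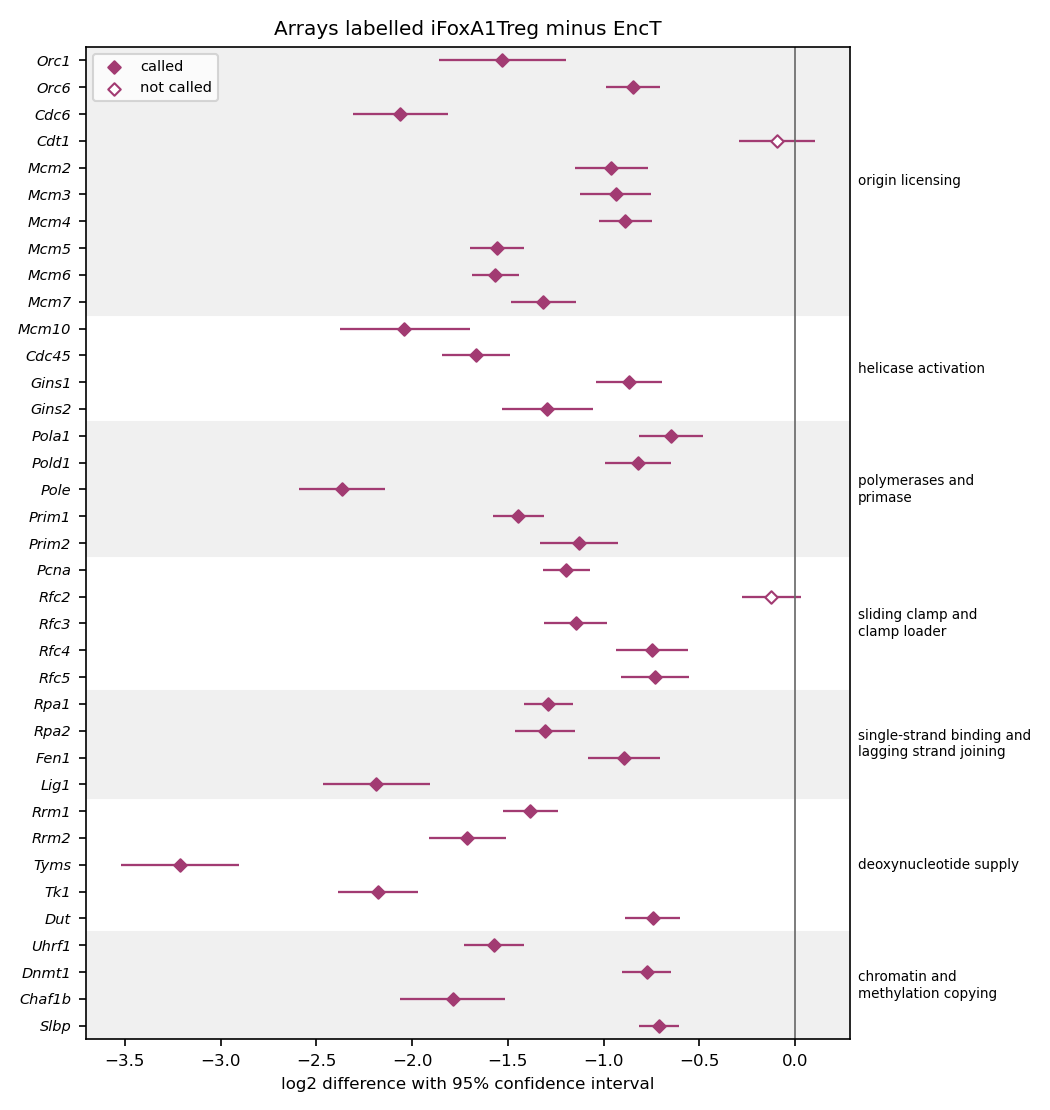
Log2 difference of each gene in the arrays labelled iFoxA1Treg minus EncT, with the 95% confidence interval from limma; filled diamonds mark genes with an adjusted p under 0.05. Tyms lies furthest left at -3.21, where its level was below the filter level of 4.05, and Cdt1 and Rfc2 are the open diamonds at -0.10 and -0.12.

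Of 34 further genes of the replication machinery, 16 rose, 0 fell and 18 were not called in nFoxA1Treg against EncT (median 0.25, 8.46% of all genes higher). In Treg 15 rose, 0 fell and 19 were not called (median 0.24, 6.23% of all genes higher). The smallest adjusted p values were those of Nasp, a histone chaperone (0.52), Timeless, a fork protection protein (0.49), and Pold2, a polymerase delta subunit (0.47). In the arrays labelled iFoxA1Treg 28 fell and 3 rose against EncT, where 38.3% of all genes were lower and 33.9% higher. The genes that rose were Orc4 (0.32), Top1 (0.62) and Mcmbp (0.28), named after their values were seen. Of 18 genes of replication stress and repair in S phase, 12 rose and 0 fell in nFoxA1Treg (median 0.36) and 10 rose and 0 fell in Treg. Fancd2 (0.51) and the uracil glycosylase Ung (0.58) had the smallest adjusted p values, followed by the checkpoint kinase Chek1 (0.48).

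Nucleotide and one-carbon synthesis genes, which feed the deoxynucleotide enzymes, were higher in both regulatory populations. Of 19 tested, 13 rose and 1 fell in nFoxA1Treg (median 0.34), where 8.46% of all genes were higher and 11.2% lower. In Treg 13 rose and 1 fell (median 0.28), where 6.23% of all genes were higher and 10.3% lower. The mitochondrial enzyme Shmt2, which takes a one-carbon unit from serine, rose by 0.88 in nFoxA1Treg and 0.76 in Treg, and the purine enzymes Gart and Adsl rose by 0.62 and 0.56 in nFoxA1Treg. The gene that fell was Samhd1, which breaks deoxynucleotides down, at -0.54 in nFoxA1Treg and -0.62 in Treg. It was at 9.86, 9.87 and 9.63 in nFoxA1Treg, 9.80, 9.63 and 9.68 in Treg, and 10.61, 9.88 and 10.49 in EncT arrays. EncT replicate 2 thus lay next to the regulatory arrays, and the fall rests on EncT replicates 1 and 3. Samhd1 averaged 11.58 in the arrays labelled iFoxA1Treg, where markers of other cells were high.

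Of 29 mitosis and spindle genes, 13 rose, 0 fell and 16 were not called in nFoxA1Treg (median 0.31, 8.46% of all genes higher), and 14 rose, 0 fell and 15 were not called in Treg (median 0.28, 6.23% of all genes higher), with a positive difference for 29 of 29 in both. Cdca8 (0.34), Incenp (0.35) and Cdc20 (0.33) had the smallest adjusted p values in nFoxA1Treg. In the arrays labelled iFoxA1Treg 29 of 29 fell against EncT, with a median of -1.92, where 38.3% of all genes were lower.

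The list of E2F and pocket protein genes also holds Mybl2, Lin9 and Lin54, which are neither. Of its 16 genes, 2 rose and 1 fell in nFoxA1Treg (median 0.13), shares near those of all genes, 8.46% higher and 11.2% lower. These were Mybl2 (0.69) and the E2F partner Tfdp1 (0.21), which rose, and the pocket protein Rbl2 (-0.13), which fell. In Treg, Tfdp1 (0.18) rose and Tfdp2 (-0.32) fell, where 6.23% of all genes were higher and 10.3% lower. None of E2f1 to E2f8 was called in either population. Of 15 G1 cyclins, kinases and inhibitors, 2 rose and 5 fell in nFoxA1Treg (median 0.023), and 2 rose and 4 fell in Treg. Over all genes, 8.46% were higher and 11.2% lower in nFoxA1Treg, and 6.23% were higher and 10.3% lower in Treg. The D cyclin Ccnd3 (-0.48) and the inhibitor Cdkn1b (-0.66) were lower in nFoxA1Treg, and so, named after their values were seen, were Ccnd2 (-0.29), Ccne2 (-0.33) and the inhibitor Cdkn1a (-0.40). Ccna2 (0.32), the cyclin of S phase, and the phosphatase Cdc25a (0.37) were higher. In the arrays labelled iFoxA1Treg against EncT, 15 of the 16 genes on the E2F and pocket protein list fell and 0 rose (median -0.87). Of the 15 G1 genes, 12 fell (median -0.98), where 38.3% of all genes were lower and 33.9% higher. The 2 G1 genes that rose there were Ccnd1 and Cdkn1b.

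**Figure D5:**
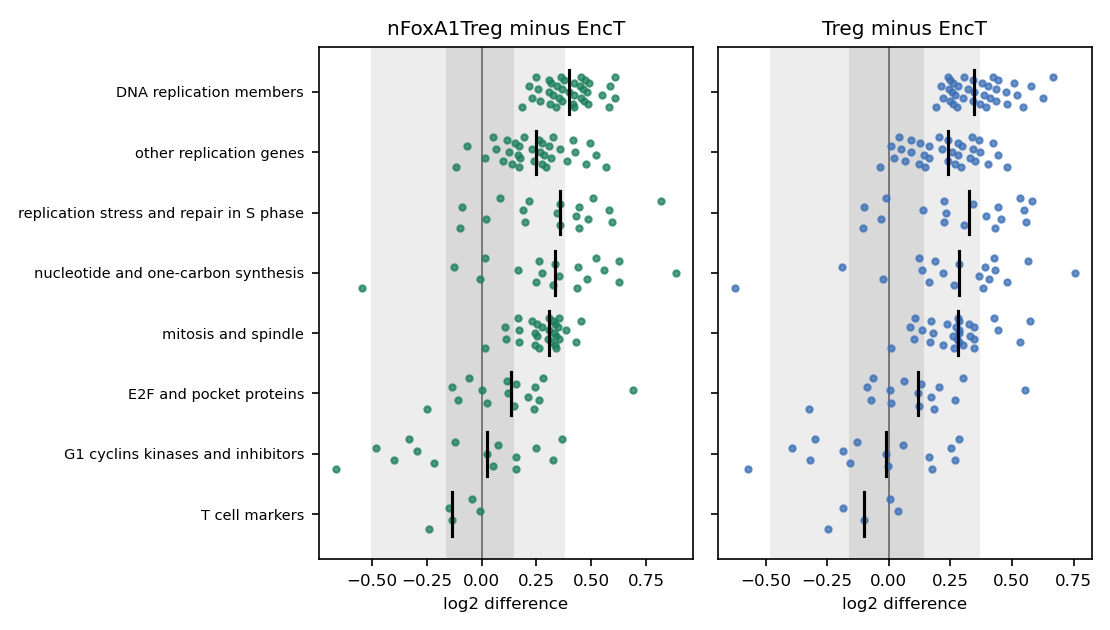
Log2 differences against EncT for the 37 replication genes and 7 other gene lists, nFoxA1Treg on the left and Treg on the right; points are genes (vertical jitter has no meaning), black bars list medians, and grey bands percentiles 25 to 75 (dark) and 5 to 95 (light) of all genes tested. The replication genes have medians of 0.40 in nFoxA1Treg and 0.35 in Treg, and the G1 list spans both sides of 0.

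Some marker genes of other cells were lower in both regulatory populations where the replication genes were higher. Of 6 macrophage and monocyte markers tested, 3 were called lower in nFoxA1Treg and 3 in Treg, namely Lyz2, Cd14 and Fcgr3, where 11.2% (nFoxA1Treg) and 10.3% (Treg) of all genes were lower. Lyz2 averaged 1.25 in nFoxA1Treg, 2.59 in Treg and 5.18 in EncT arrays, and Fcgr3 1.68 in nFoxA1Treg, 1.13 in Treg and 4.40 in EncT arrays, mostly below the filter level, so the sizes of these differences are uncertain. The 7 markers on the array summed to 102 to 139 in nFoxA1Treg, 132 to 155 in Treg and 199 to 232 in EncT arrays. The MHC class II gene H2-Aa and the gene Cd74 also fell in both. The 6 dendritic cell markers, which include them, summed to 96 to 175 in nFoxA1Treg, 190 to 236 in Treg and 356 to 413 in EncT arrays. Of the 3 tested, the remaining gene, Zbtb46, was not called, at 4.43 in nFoxA1Treg, 4.51 in Treg and 4.43 in EncT arrays. Flt3, which did not pass the filter, averaged 3.17 in nFoxA1Treg, 3.33 in Treg and 2.75 in EncT arrays. The 4 CD8 T and NK cell markers summed to 327 to 373 in nFoxA1Treg, 350 to 364 in Treg and 490 to 645 in EncT arrays. Of the 3 tested, Klrd1 was called lower in both (-0.91 in nFoxA1Treg, -0.92 in Treg), and Cd8a (0.11 in nFoxA1Treg, 0.12 in Treg) and Cd8b1 (-0.22 in nFoxA1Treg, -0.047 in Treg) were not called. Of 5 T cell markers tested, 1 fell in each population. The summed B cell markers overlapped, at 70 to 97 in nFoxA1Treg, 93 to 98 in Treg and 88 to 154 in EncT arrays. Of the 4 tested, 2 were called lower in nFoxA1Treg and 0 in Treg. Cd79b averaged -0.35 in nFoxA1Treg and 3.79 in EncT arrays, and Ms4a1 2.92 in nFoxA1Treg and 4.70 in EncT arrays. Both nFoxA1Treg means lay below the filter level, so the sizes of these differences are uncertain. Pax5 averaged 4.28 in nFoxA1Treg and 3.94 in EncT arrays, and Cd22 5.47 in nFoxA1Treg and 5.49 in EncT arrays. The 6 neuronal markers overlapped too, at 168 to 211 in nFoxA1Treg, 197 to 213 in Treg and 164 to 212 in EncT arrays. The part of these other cells in the replication gene differences was not tested.

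Promoter sequences were read because the genes moved together and E2F sites are a known feature of this set. RefSeq promoters of build GRCm38.p6, from 250 bases before to 50 bases after the start, matched 32 of the 38 genes. The letters TTTGGCGC, TTTCCCGC, TTTGCCGC or TTTCGCGC, which are E2F-type sites, were searched on both strands. They occurred in 13 of 32 genes, 40.6%, against 2.60% of 27025 genes with a promoter of the same length. The related lists, described above, gave 33.3% for the further replication genes, 23.1% for the G1 genes and 4.17% for the mitosis list. The CCAAT letters, bound by NF-Y, occurred in 65.6% of the replication genes and 41.1% of all genes. They occurred in 79.2% of the mitosis list, 61.5% of the G1 genes and 50% of the further replication genes, so neither was particular to this set. The letters TTTGAA or TTCGAA, of the CHR element known from mitotic genes, occurred in 18.8% of the replication genes, 75% of the mitosis list and 21.7% of all genes. A match of letters is a description and not evidence of binding.

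The promoters of 4 licensing ring genes and 2 polymerase genes are shown as examples. These genes rose in both groups and carry E2F-type letters, which are in capitals. Cdc6, Cdt1, Dnmt1, Lig1, Orc1, Rfc3 and Uhrf1 also carry such letters and rose in both groups, and are not shown. The promoters shown read 5′ to 3′ on the strand of the gene, and matches overlap in Mcm5 and Mcm6. Mcm3 lies at chr1:20820263-20820562, minus strand, Mcm5 at chr8:75109259-75109558, plus strand, Mcm6 at chr1:128359656-128359955, minus strand, and Mcm7 at chr5:138171834-138172133, minus strand. Pola1 lies at chrX:93632106-93632405 and Pold1 at chr7:44548766-44549065, both on the minus strand.
Mcm3: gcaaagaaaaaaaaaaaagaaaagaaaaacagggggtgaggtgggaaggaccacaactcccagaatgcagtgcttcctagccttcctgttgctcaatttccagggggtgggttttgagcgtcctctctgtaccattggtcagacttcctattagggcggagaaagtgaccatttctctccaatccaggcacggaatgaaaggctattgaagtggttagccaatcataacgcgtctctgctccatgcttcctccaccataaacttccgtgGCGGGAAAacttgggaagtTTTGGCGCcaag
Mcm5: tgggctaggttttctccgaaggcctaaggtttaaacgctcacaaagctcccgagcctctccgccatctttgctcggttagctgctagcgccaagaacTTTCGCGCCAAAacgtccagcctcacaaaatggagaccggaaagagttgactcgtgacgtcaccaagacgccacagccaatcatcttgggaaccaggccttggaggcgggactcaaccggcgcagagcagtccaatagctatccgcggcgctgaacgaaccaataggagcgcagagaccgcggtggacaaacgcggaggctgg
Mcm6: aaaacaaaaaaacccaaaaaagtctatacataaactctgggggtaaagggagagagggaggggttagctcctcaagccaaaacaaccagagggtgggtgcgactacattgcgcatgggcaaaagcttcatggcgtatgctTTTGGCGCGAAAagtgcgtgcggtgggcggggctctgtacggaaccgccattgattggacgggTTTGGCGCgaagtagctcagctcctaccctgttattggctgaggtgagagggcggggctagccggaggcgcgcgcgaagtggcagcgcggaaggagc
Mcm7: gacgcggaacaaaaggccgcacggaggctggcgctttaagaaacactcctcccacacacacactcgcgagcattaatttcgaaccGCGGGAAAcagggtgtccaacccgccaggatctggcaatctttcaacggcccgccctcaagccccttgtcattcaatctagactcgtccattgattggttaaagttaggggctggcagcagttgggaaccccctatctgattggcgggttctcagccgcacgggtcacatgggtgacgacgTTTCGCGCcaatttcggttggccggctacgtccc
Pola1: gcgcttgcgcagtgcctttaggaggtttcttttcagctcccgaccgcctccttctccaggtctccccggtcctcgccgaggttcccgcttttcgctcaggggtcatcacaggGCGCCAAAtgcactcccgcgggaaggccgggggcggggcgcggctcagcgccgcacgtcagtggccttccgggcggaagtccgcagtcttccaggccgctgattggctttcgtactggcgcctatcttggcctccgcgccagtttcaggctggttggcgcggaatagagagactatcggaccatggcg
Pold1: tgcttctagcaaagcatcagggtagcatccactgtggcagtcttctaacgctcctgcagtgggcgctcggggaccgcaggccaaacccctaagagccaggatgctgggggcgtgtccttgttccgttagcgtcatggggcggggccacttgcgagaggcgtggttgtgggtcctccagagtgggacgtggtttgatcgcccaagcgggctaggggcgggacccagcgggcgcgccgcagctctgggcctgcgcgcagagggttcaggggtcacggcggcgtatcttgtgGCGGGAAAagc

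In Mcm3 both matches fell after the start, 19 and 38 bases into the transcript side of the window, and in Mcm5 they overlapped 153 and 149 bases before it. Genes with E2F-type letters had a median difference of 0.45 in nFoxA1Treg (n = 13), against 0.36 for genes without them (n = 18). In Treg the medians were 0.44 with and 0.29 without the letters, and in the arrays labelled iFoxA1Treg they were -1.31 and -1.30. The ranges overlapped in each comparison, from 0.18 to 0.61 with and from 0.22 to 0.58 without the letters in nFoxA1Treg, and no test was made.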

How the data were processed

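The authors deposited 1 table of log2 values, with 45037 probe sets and 12 arrays; the log base was inferred from the range of the values. PLIER, which summarises the probes of a probe set, is named in the submitters' processing notes; its version is not given in the sources used here, nor is any step that scaled the arrays to each other. Arrays have no read depth, so the number of arrays limits the precision. Values were quantile normalized, the upper 60% of probe sets by mean kept (a level of 4.05), and each gene read from its brightest probe set naming 1 gene (34945 probe sets; 932 named several, 9160 none). limma 3.58.1 in R 4.3.3 fitted 1 mean per group over the 12 arrays (8 residual degrees of freedom, eBayes with intensity trend), with two-sided p-values adjusted by Benjamini-Hochberg within each comparison and checked on simulated data. Groups came from the labels. All genes on the list are named; values in every array were printed for the gene with the smallest adjusted p of each role, for 8 fixed genes, for the 3 most negative differences in the arrays labelled iFoxA1Treg, and for 2 genes not called there. Genes of other lists are the 3 with the smallest adjusted p, except where stated. The genes, lists and rules were chosen with earlier results of these data known. Alternatives changed the normalization, filter, log scale, probe set choice, variance model, samples and replicate block. Figures used matplotlib 3.10.9.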

Additional observations from a re-analysis of the deposited data

How the results depend on the processing

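Under the 23 alternatives, between 24 and 37 of the 37 genes were called higher in nFoxA1Treg against EncT, and 0 were called lower. None of the 35 genes called in nFoxA1Treg or the 31 called in Treg had a negative difference under any of them. The lowest count, 24, came both with only the arrays of the 2 groups and without nFoxA1Treg replicate 2. In Treg against EncT 18 were called with only the arrays of the 2 groups, 21 with arrays centred on their medians, and from 17 to 37 when 1 array was left out. With the replicate block, 35 genes were called in nFoxA1Treg and 33 in Treg. Deviations of same-numbered arrays correlated at -0.0119, -0.118 and -0.164 between nFoxA1Treg and EncT, and at 0.166, 0.130 and 0.0899 between Treg and EncT. The labels do not tie the numbers to a shared animal or batch and not every correlation passed 0.1, so the numbers were not taken as pairs. The median in the arrays labelled iFoxA1Treg was -1.12 against EncT with the mean of a gene's probe sets. Against nFoxA1Treg it was -1.79 on values as deposited, -1.66 with arrays centred, -1.57 on log2(value + 16), -1.55 with the mean of a gene's probe sets, and -1.64 to -1.59 with 1 array left out. Against Treg it was -1.71 as deposited, -1.49 on log2(value + 16), -1.52 with the mean of probe sets. As deposited, 25.9% of all genes were higher and 45.7% lower in these arrays than in EncT, with an all-gene median of -0.18, against 33.9% and 38.3%. In Treg against EncT 4.24% were higher and 11.2% lower as deposited, and 3.40% and 10.3% with arrays centred. Over all genes, nFoxA1Treg against EncT gave 2473 calls, 4726 with array weights, 1227 with only 2 groups, and 1525 and 1517 without nFoxA1Treg replicates 1 and 2. Treg against EncT gave 2081, 4198, 1140, and 1012 and 1065 without Treg replicates 2 and 3. The causes were not tested. Arrays as few as 3 per group limit what differences can be called. The probe set counts were added after seeing the data.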
